A study of Mus musculus with 21 samples.

Results

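Glycolysis splits glucose into pyruvate in the cytosol, and the brain runs on it more than most organs do. A set of 10 enzymes of that route was followed here in whole-brain RNA: hexokinase 1 (Hk1), glucose-6-phosphate isomerase (Gpi1), the liver, muscle and platelet subunits of phosphofructokinase (Pfkl, Pfkm and Pfkp), aldolases A and C (Aldoa and Aldoc), phosphoglycerate kinase 1 (Pgk1), enolase 2 (Eno2) and the muscle-type pyruvate kinase (Pkm). Hexokinase traps glucose in the cell, phosphofructokinase makes the committed step of the route, and phosphoglycerate kinase and pyruvate kinase make ATP. Several steps have isozymes with a known home in the brain: Eno2 is classed as the neuronal enolase, and Aldoc as the aldolase of astrocytes and Purkinje cells, while Aldoa is found in most cells. The 10 genes are a list of names, chosen with earlier results of these data known. They are 10 of the 16318 genes in the count table, and all 10 passed the low-count filter that left 16303 genes for testing.

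The RNA came from 21 mice of the senescence-accelerated strain SAMP8, a model of early age-related memory loss, with 1 library per mouse and the whole brain as the tissue. Dosing began at 4 months of age and lasted 8 weeks. HsTX1[R14A], a peptide that blocks the potassium channel Kv1.3, was given under the skin at 1 mg/kg on alternate days to 3 female and 6 male mice, and phosphate-buffered saline (PBS) to 6 female and 6 male mice. Each library held 14917174 to 47613792 counts, and no pair of mice in a group differed by as little as sampling noise alone. The libraries differed in 4 other ways that are given beside the results: PBS mice 103 and 90 stood apart on the main axis of variation, the libraries varied in how counts depended on transcript length and in the mitochondrial share of counts, and the column names of the table carry 2 prefixes, SAMP8 (10 PBS and 5 HsTX1[R14A] mice) and SAMP (2 PBS and 4 HsTX1[R14A] mice), whose meaning is not given in the sources used here. In whole-brain RNA, fewer cells of a type and less RNA per cell cannot be told apart.

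The stretch of 250 bases before the start site is shown for 4 of the genes because they cover the opposite behaviors described below: Eno2 was higher and Aldoc lower in HsTX1[R14A]-treated mice, and Aldoa and Pgk1 passed the test in neither direction. Sequences are RefSeq promoters on GRCm38.p6, printed 5' to 3' on the strand of the gene. Aldoa has 3 such stretches in the table and Aldoc has 2. The ones printed hold the most of the motifs searched, and those at chr7:126800448-126800697 (Aldoa) and chr11:78323948-78324197 (Aldoc) hold none. Capitals mark letters that match, on either strand, ACGTG (after the hypoxia response element), GGGCGG (after the GC box) and TATAAA (after the TATA box). Distance from the start site was not used, and the Eno2 match is the reverse complement, TTTATA.
Eno2, chr6:124769674-124769923, minus strand: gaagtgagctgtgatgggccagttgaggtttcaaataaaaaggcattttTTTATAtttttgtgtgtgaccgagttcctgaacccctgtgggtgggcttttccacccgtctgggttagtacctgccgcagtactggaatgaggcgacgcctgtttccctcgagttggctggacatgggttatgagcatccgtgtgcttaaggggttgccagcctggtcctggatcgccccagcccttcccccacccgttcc
Aldoa, chr7:126799179-126799428, minus strand: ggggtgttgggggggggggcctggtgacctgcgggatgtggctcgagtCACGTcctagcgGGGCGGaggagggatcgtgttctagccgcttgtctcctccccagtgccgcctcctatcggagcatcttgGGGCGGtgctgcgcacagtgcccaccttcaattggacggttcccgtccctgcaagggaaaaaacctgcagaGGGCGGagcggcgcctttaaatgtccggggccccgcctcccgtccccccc
Aldoc, chr11:78322823-78323072, plus strand: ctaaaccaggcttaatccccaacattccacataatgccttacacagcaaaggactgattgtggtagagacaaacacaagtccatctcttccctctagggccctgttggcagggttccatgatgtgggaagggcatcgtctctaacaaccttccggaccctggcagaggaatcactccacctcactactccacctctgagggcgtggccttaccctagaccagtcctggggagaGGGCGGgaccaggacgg
Pgk1, chrX:106186850-106187099, plus strand: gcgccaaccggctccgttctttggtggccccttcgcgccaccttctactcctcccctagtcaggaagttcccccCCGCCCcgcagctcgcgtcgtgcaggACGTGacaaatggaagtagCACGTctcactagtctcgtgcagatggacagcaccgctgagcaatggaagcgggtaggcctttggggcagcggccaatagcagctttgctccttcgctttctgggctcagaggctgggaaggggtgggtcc

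The 10 genes have 18 such promoters in the RefSeq table, since several have more than 1 start site. ACGTG was found in at least 1 promoter of 4 of the 10 genes (Aldoa, Pfkm, Pgk1 and Pkm), against 18.5% of 27025 genes. GGGCGG was found in 6 of the 10 (Aldoa, Aldoc, Gpi1, Pfkp, Pgk1 and Pkm), against 35.4% of all genes. TATAAA was found only in Eno2 among the 10, against 14.3% of all genes. The E-box CACGTG, which contains ACGTG, was found only in Pfkm, against 6.86% of all genes. A gene with more promoters has more chances of a match, so shares per promoter are given too. Among the 18 promoters, 33.3% held ACGTG and 38.9% GGGCGG, against 16.6% and 32.7% of all 32851 promoters. For TATAAA and CACGTG the share was 5.56% each, against 12.4% and 6.02%. Of the 4 genes with ACGTG, Pfkm and Pkm were higher in treated mice, and Aldoa and Pgk1 did not pass the test. A match describes these letters only.

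Levels between genes were compared per kilobase of the principal transcript, as CPM (counts scaled to library size, with TMM factors) per kilobase. In PBS mice, Aldoa stood first at 907 ± 67.7 (SD, n = 12), followed by Pkm at 372 ± 56.0, Aldoc at 291 ± 24.9, Eno2 at 234 ± 39.1, Gpi1 at 195 ± 21.3 and Pgk1 at 173 ± 18.02. Pfkm (71.0 ± 13.3), Hk1 (46.6 ± 16.8), Pfkp (41.2 ± 8.68) and Pfkl (24.8 ± 4.92) were lower. Within 1 SD of each mean, Aldoc and Eno2, Eno2 and Gpi1, Gpi1 and Pgk1, Pfkm and Hk1, and Hk1 and Pfkp overlapped as neighbors in this order. Dividing by the longest transcript instead changed only the order of the last 2, since the longest Pfkp transcript has 8681 bases and its principal transcript 4145. The order of Aldoc and Eno2 was the other way round in HsTX1[R14A]-treated mice, at 257 ± 31.6 and 299 ± 34.5 CPM per kilobase (n = 9). On this scale Pfkm made up 51.9% ± 2.31 (SD, n = 12) of the phosphofructokinase mRNA of PBS mice and Pfkl 18.1% ± 1.31, the rest being Pfkp. In treated mice the shares were 51.5% ± 2.01 for Pfkm, 30.6% ± 2.72 for Pfkp and 17.9% ± 1.78 for Pfkl (n = 9). These shares depend on the transcript length used for Pfkp. Per kilobase of the longest transcript, Pfkp stood at 19.7 in PBS mice, with Pfkm and Pfkl unchanged at 71.0 and 24.8.

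Comparison of HsTX1[R14A] with PBS asks which of these mRNAs differed after chronic block of Kv1.3. In HsTX1[R14A]-treated mice, 6 of the 10 enzymes were higher (Hk1, Pfkl, Pfkm, Pfkp, Eno2 and Pkm), Aldoc was lower, and Gpi1, Aldoa and Pgk1 did not pass the test (edgeR quasi-likelihood test, sex in the model, adjusted p at most 0.05). Over all genes tested, 15.5% were called higher and 16.1% lower, 31.6% in all. The median log2 fold change of the 10 enzymes was 0.30, against -0.01 over all genes. Fold changes were small, from 1.22-fold (Pkm) to 1.57-fold (Hk1) among the enzymes called higher. The PBS and HsTX1[R14A] values overlapped for each of the 10 enzymes.

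**Figure D1:**
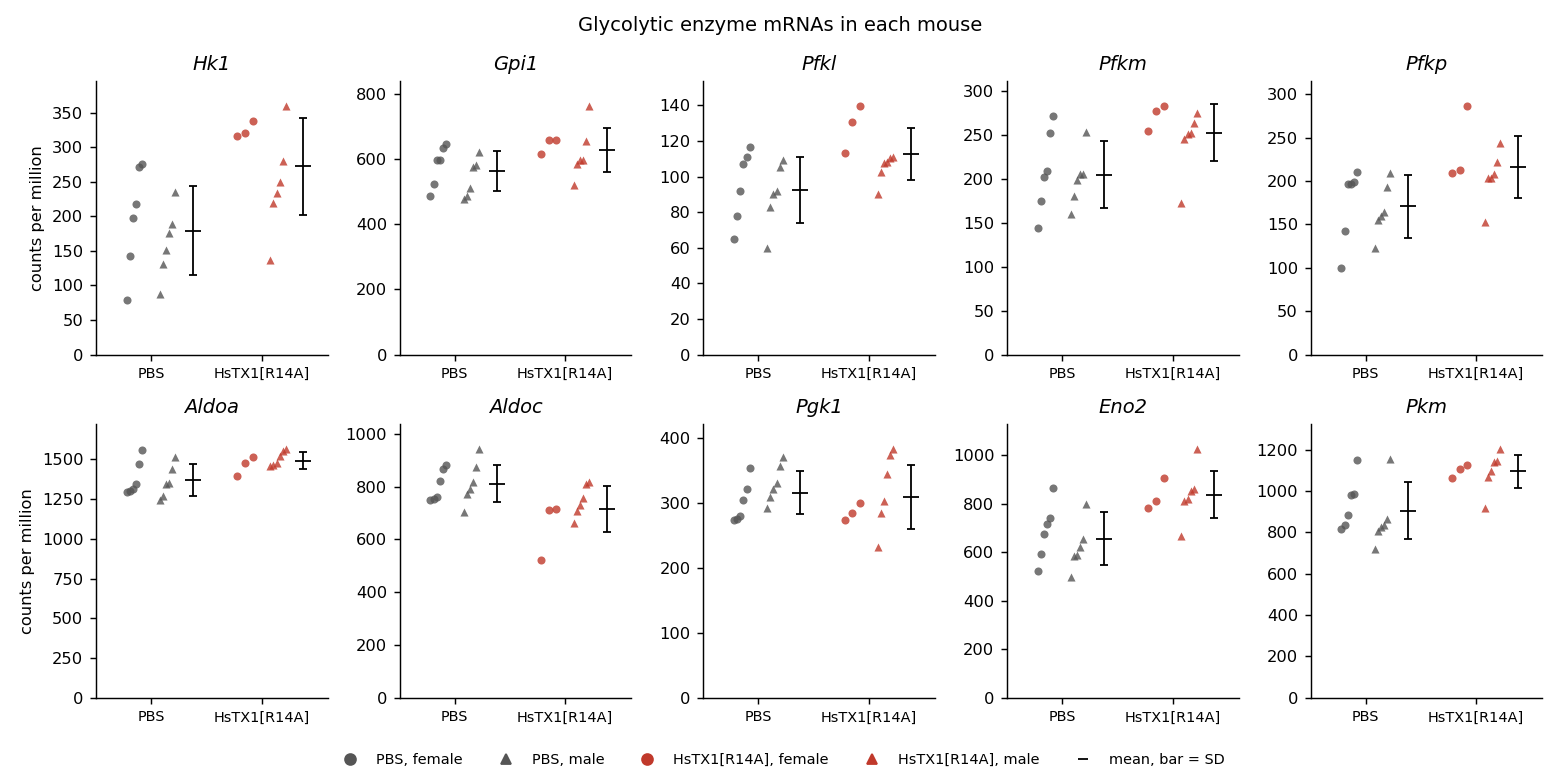
CPM (y axis, from 0) of each of the 10 enzymes in PBS and HsTX1[R14A]-treated mice, with 1 point per mouse, circles for females and triangles for males, and the mean with its SD beside each treatment. The groups overlap in every panel, and Hk1 spreads most in proportion to its level, its highest PBS value being 3.49 times the lowest.

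Hk1, the main brain hexokinase, showed the largest log2 fold change of the 10. In PBS mice it ranged from 79.1 to 276 CPM with a median of 182, and in treated mice from 136 to 359.7 CPM with a median of 279.5. The log2 fold change was 0.65 (SE 0.20, adjusted p = 0.0244). Each of the 12 PBS mice lay below the treated median, and 5 of 9 treated mice lay above the highest PBS mouse. In proportion to its level, Hk1 was also the most variable of the 10 among PBS mice, with a highest value 3.49 times the lowest, PBS mice 103 and 90 holding the lowest values (79.1 and 87.6 CPM). The gene spans chr10:62268855-62379908 on the minus strand of GRCm38 and is overlapped by the antisense gene Hk1os.

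Gpi1, which turns glucose-6-phosphate into fructose-6-phosphate, ran from 478 to 646 CPM in PBS mice (median 579) and from 520.1 to 762 CPM in treated mice (median 616). Its log2 fold change of 0.17 (SE 0.07) did not pass the test (adjusted p = 0.0764). Of the treated mice, 8 of 9 lay above the PBS median, and the groups overlapped widely. The gene lies at chr7:34201330-34230336, minus strand. Male treated mouse 81, which also had the highest Hk1, Eno2 and Pkm, held the highest Gpi1 value.

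All 3 phosphofructokinase subunits were higher in treated mice, by similar amounts. Pfkm, the most abundant of them, ranged from 144 to 271 CPM in PBS mice (median 203) and from 172 to 283 CPM in treated mice (median 254.5). Its log2 fold change was 0.32 (SE 0.11, adjusted p = 0.0322). Pfkp ranged from 100.3 to 211 CPM (median 179) in PBS mice and from 153 to 287 CPM (median 209) in treated mice, with a log2 fold change of 0.35 (SE 0.12, adjusted p = 0.0381). For Pfkl the range was 59.9 to 116 CPM (median 92.1) in PBS mice and 90.0 to 139.7 CPM (median 111) in treated mice, a log2 fold change of 0.31 (SE 0.11, adjusted p = 0.0370). Of the 9 treated mice, 8 exceeded the PBS median of each subunit. The exception in Pfkm, Pfkp and Pfkl alike was male mouse 93, the lowest treated mouse for all 3. In the PBS group, mice 103 and 90 were the lowest pair for all 3. The genes lie apart, Pfkm at chr15:98092589-98132451 (plus strand), Pfkp at chr13:6579768-6648777 and Pfkl at chr10:77986947-78010083 (both minus strand).

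The 2 aldolases, which split fructose-1,6-bisphosphate, lay on opposite sides of 0. Aldoc ranged from 704 to 942 CPM in PBS mice (median 803) and from 522 to 819 CPM in treated mice (median 714), and fell by 0.20 on the log2 scale (SE 0.07, adjusted p = 0.0442). Of 12 PBS mice, 11 lay above the treated median, and 2 of 9 treated mice lay below the lowest PBS mouse. The lowest Aldoc value, 522 CPM, belonged to female treated mouse 98. Aldoa ranged from 1244 to 1562 CPM in PBS mice (median 1344) and from 1396 to 1565 CPM in treated mice (median 1480). All 9 treated mice lay above the PBS median, but the log2 fold change of 0.12 (SE 0.06) did not pass the test (adjusted p = 0.0931). Aldoc lies at chr11:78322968-78327781 (plus strand) and Aldoa at chr7:126795234-126800751 (minus strand), where it overlaps Fam57b on the other strand.

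Pgk1, the X-linked enzyme of the first ATP-making step, ranged from 273 to 371 CPM in PBS mice (median 315) and from 232 to 383 CPM in treated mice (median 299.5). The treated mice spread beyond the PBS range on both sides, 2 above and 2 below, and the log2 fold change was -0.06 (SE 0.08, adjusted p = 0.597). Its locus is chrX:106187100-106203699, plus strand. Processed copies of Pgk1 and of Aldoa lie elsewhere in the mouse genome, and reads could be split between them and the parent gene.

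Eno2, whose protein is neuron-specific enolase, had the smallest adjusted p of the 10. Values ran from 499 to 862 CPM in PBS mice (median 638) and from 666 to 1024 CPM in treated mice (median 817). The log2 fold change was 0.37 (SE 0.10, adjusted p = 0.0175), with all 9 treated mice above the PBS median and 11 of 12 PBS mice below the treated median. Pkm, which makes pyruvate and ATP, ran from 721 to 1156 CPM in PBS mice (median 851) and from 918 to 1203 CPM in treated mice (median 1107). Its log2 fold change was 0.29 (SE 0.08, adjusted p = 0.0208), and again all 9 treated mice exceeded the PBS median. Eno2 lies at chr6:124760053-124769673 (minus strand) and Pkm at chr9:59656368-59679375 (plus strand). Gene-level counts do not separate the M1 and M2 splice forms of Pkm. For Eno2, Pkm and Aldoa, the 2 highest PBS values were those of mice 102 and 104, the only PBS mice with the header prefix SAMP: 799.7 and 862 CPM for Eno2, 1156 and 1150 CPM for Pkm, and 1514 and 1562 CPM for Aldoa.

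**Figure D2:**
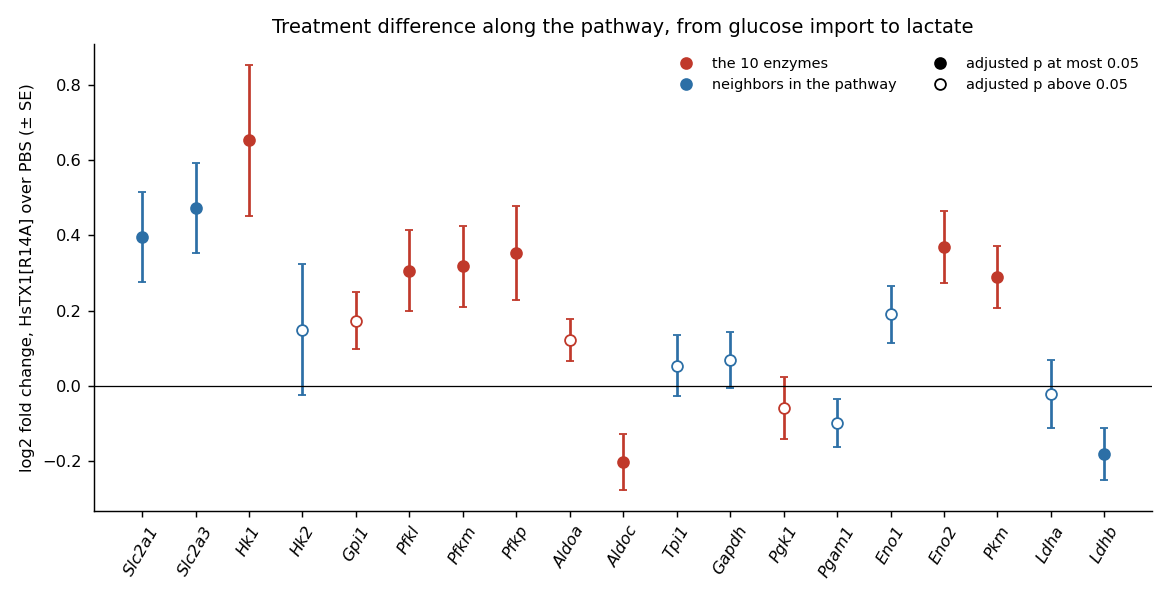
Treatment difference on the log2 scale, HsTX1[R14A] minus PBS (y axis, bars are SE) for the 10 enzymes in red and neighboring genes in blue, ordered from glucose import to lactate, filled where the adjusted p was at most 0.05. The glucose transporters, Hk1, the phosphofructokinases, Eno2 and Pkm lie between 0.29 and 0.65, the genes from Tpi1 to Pgam1 within 0.10 of 0, and Aldoc and Ldhb below 0.

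Other enzymes of the same route surround the 10, and counts in this and the next paragraph stand against 15.5% higher and 16.1% lower over all genes. Of 15 further glycolytic enzymes tested, 1 was higher (Eno1b, 0.19), 1 was lower (Bpgm, which makes 2,3-bisphosphoglycerate, -0.30) and 13 did not pass the test, with a median log2 fold change of 0.02. Between aldolase and enolase, Tpi1 (0.05, adjusted p = 0.615), Gapdh (0.07, adjusted p = 0.477) and Pgam1 (-0.10, adjusted p = 0.217) gave values close to 0. Eno1, the enolase of most cells, had a log2 fold change of 0.19 (SE 0.08, adjusted p = 0.0563). Eno1b, listed as a gene of its own, and Eno1 are near copies, and reads could be divided between them. Hk2 was scarce, with a mean of 3.01 CPM (SD 0.945, n = 12) under PBS and of 3.26 CPM (SD 0.547, n = 9) under HsTX1[R14A].

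Upstream, both main glucose transporters of the brain were higher. Slc2a3, the neuronal transporter GLUT3, had a log2 fold change of 0.47 (SE 0.12, adjusted p = 0.0170), and Slc2a1, the transporter GLUT1 of the blood-brain barrier and astrocytes, 0.40 (SE 0.12, adjusted p = 0.0237). Together with Ldhb, which was lower (-0.18, SE 0.07, adjusted p = 0.0497), they were the called genes among 17 tested for glucose and lactate transport and lactate dehydrogenases. Of 18 regulators of glycolytic flux, 6 were higher and none was lower; Pfkfb3, which makes the activator of phosphofructokinase, stood at 0.40 (adjusted p = 0.0189) and the pyruvate dehydrogenase phosphatase Pdp2 at 0.39 (adjusted p = 0.0225). Downstream, 1 of 8 genes for pyruvate entry into mitochondria was lower (the pyruvate carrier subunit Mpc1, -0.60, adjusted p = 0.0205) and none was higher, Pcx standing at 0.31 (adjusted p = 0.0601). In the pentose phosphate pathway, 2 of 8 were lower (Pgls, -0.27, and Rpe, -0.35). In glycogen metabolism, 4 of 25 were higher (among them Gsk3b, 0.33) and 5 lower (among them Pgm1, -0.26, and Gbe1, -0.25). In the HIF pathway, 4 of 20 were higher (among them P4ha1, 0.34, and Hif1an, 0.40) and 2 lower (Bnip3, -0.41, and Bnip3l, -0.48). The shares called in these last 2 lists lie near the 31.6% of all genes.

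Ratios of isozymes within a library depend on how libraries are scaled only through the pseudocount of 0.5 CPM, which weighs most on the scarce Hk2. Between treatments, 7 ratios were tested by exact permutation of the labels within sex (77616 assignments, two-sided, smallest p possible 1.29e-05), with adjustment over the 7. Such ratios may still move with how a library's counts depend on transcript length or with its mitochondrial share, and neither relation was tested. The ratio of Aldoc to Aldoa had the smallest p of the 7. Its log2 value ranged from -1.04 to -0.51 in PBS mice (median -0.76) and from -1.42 to -0.87 in treated mice (median -1.06). The sex-averaged difference was -0.34 (exact permutation p = 0.000193, adjusted p = 0.00135), all 9 treated mice lay below the PBS median, and 7 of them lay below the lowest PBS mouse. On the CPM per kilobase scale, Aldoc made up 24.3% ± 2.20 (SD, n = 12) of aldolase A and C mRNA in PBS mice and 20.6% ± 1.69 (n = 9) in treated mice.

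**Figure D3:**
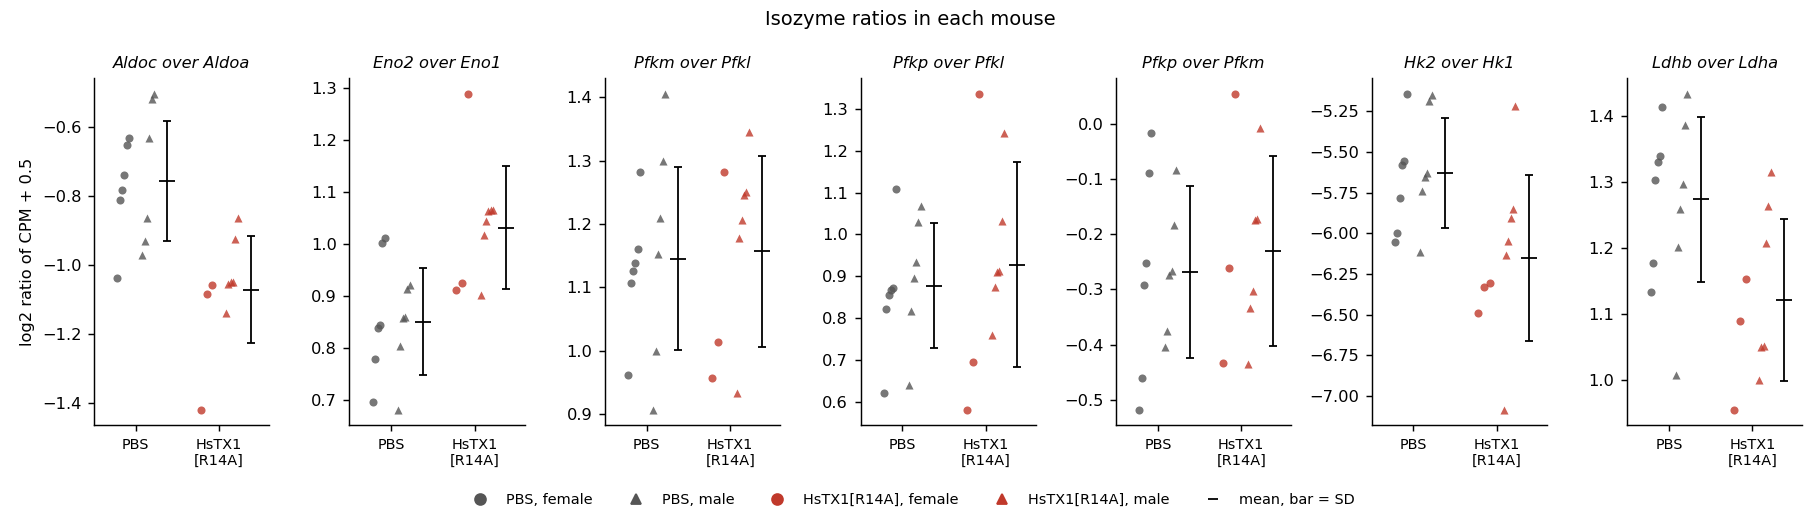
Log2 ratio of CPM + 0.5 (y axis, a different range in each panel) for 7 isozyme pairs, with 1 point per mouse, circles for females and triangles for males, and the mean with its SD. Aldoc over Aldoa is lower in treated mice with 7 of 9 below every PBS mouse, and Eno2 over Eno1 is higher with 6 of 9 above every PBS mouse.

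The ratio of Eno2 to Eno1 shifted the other way. Its log2 value ranged from 0.68 to 1.01 in PBS mice (median 0.85) and from 0.90 to 1.29 in treated mice (median 1.04), a sex-averaged difference of 0.18 (exact permutation adjusted p = 0.00848). All 9 treated mice lay above the PBS median and 6 above the highest PBS mouse. The 3 phosphofructokinase ratios gave no such shift, with differences of -0.01 (Pfkm over Pfkl), 0.04 (Pfkp over Pfkl) and 0.04 (Pfkp over Pfkm), and exact permutation adjusted p of 0.919, 0.853 and 0.853. Hk2 over Hk1 was lower by a difference of -0.58 (exact permutation adjusted p = 0.01004), with Hk2 itself near 3 CPM. Ldhb over Ldha was lower by a difference of -0.17 (exact permutation adjusted p = 0.0173).
Among the 15 mice with the header prefix SAMP8 alone, the difference stood at -0.32 for Aldoc over Aldoa (exact permutation adjusted p = 0.0179) and at 0.13 for Eno2 over Eno1 (exact permutation adjusted p = 0.0566). Mice 102 and 104, the PBS mice with the other prefix, held the lowest PBS ratios of Aldoc to Aldoa. Without PBS mice 103 and 90, the difference was -0.31 for Aldoc over Aldoa (exact permutation adjusted p = 0.00433) and 0.16 for Eno2 over Eno1 (exact permutation adjusted p = 0.0208).

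Of 59 markers of brain, blood and vessel cell types, 6 (10.2%) were higher and 11 (18.6%) lower, 28.8% in all, which is close to the 31.6% of all genes. Of 11 neuron markers, 2 were higher (Nefm, 0.61, and Syt1, 0.31) and none lower, and their summed level ranged from 6129 to 9009 CPM in PBS mice and from 7255 to 10360 CPM in treated mice. Of 11 astrocyte markers, 2 were higher (Fgfr3, 0.32, and Slc4a4, 0.32) and 3 lower (S100b, -0.72, Gfap, -0.59, and Aqp4, -0.30), with a median log2 fold change of -0.02 and sums from 2714 to 4632 and from 2857 to 4726 CPM. Of 9 oligodendrocyte markers, 5 were lower (among them Opalin, -0.99, and Mobp, -0.67), with sums from 4473 to 6858 and from 3399 to 4996 CPM. Microglia markers (3 of 9 lower, among them C1qb, -0.43, and P2ry12, -0.65), endothelial markers (2 of 7 higher, Flt1, 0.64, and Kdr, 0.54), choroid plexus markers (0 of 7 called, Otx2 at -0.67 and Kcnj13 at -0.41) and erythrocyte markers (0 of 5 called, Hbb-bs at 0.63 and Hbb-bt at 0.54) completed the lists. None of these markers was at 0 in any mouse except Hba-a2, an erythrocyte gene. The part of cell type composition in the shifts of Eno2 and Aldoc was not tested.

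The 10 enzymes did not differ between females and males by the test. None was called (edgeR, 0 of 10, also 0 at an unadjusted p under 0.05, and 0 with limma/voom or DESeq2), and over all genes 0.0552% were called for sex. Hk1 had the largest estimate, 0.33 on the log2 scale higher in females (SE 0.20, adjusted p = 0.448). Counts at an unadjusted p depended on female PBS mouse 103. Without that mouse, 3 of the 10 and 5315 of 16302 genes had an unadjusted p under 0.05 for sex (edgeR). With all mice 1765 genes did, and 0 of the 10 were called in either fit. The treatment difference itself was compared between the sexes by an interaction term, which called 0 of the 10 and 0% of all genes (edgeR, with 270 genes at an unadjusted p under 0.05, and 0 genes with limma/voom or DESeq2). Hk1 was 0.72 (SE 0.32) higher on the log2 scale in treated females and 0.61 (SE 0.27) in treated males, Eno2 0.28 (SE 0.15) and 0.43 (SE 0.13), and Aldoc -0.31 (SE 0.12) and -0.13 (SE 0.09). The estimates had the same sign in females and males for each of the 10 enzymes. The widest interaction among them was that of Pfkl, 0.21 (SE 0.22), and a p that misses the threshold does not show that females and males responded alike.

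Levels of most of the 10 followed a property of the whole library, and how many of all genes did so was not counted. The length slope is the slope, over all tested genes, of a library's log2 CPM (relative to the mean of the 21 mice) on log2 transcript length, so a library with a positive slope holds relatively more counts of long transcripts. It ranged from -0.38 to 0.15 in PBS mice and from -0.14 to 0.23 in treated mice, a sex-averaged difference of 0.20 (exact permutation p = 0.00631). The main axis of variation, which held 41.6% of the variance over all tested genes, had the same mice at its ends. PBS mice 103 and 90 were lowest on both (-83.2 and -74 on the axis), and treated mouse 98 was highest on both (50.8 on the axis). Among the 12 PBS mice, where treatment plays no part, Hk1 followed the slope with Pearson's r = 0.98 and Spearman's rho = 0.97 (permutation, 100000 resamples, p = 1e-05 each, the smallest they can give, adjusted p = 0.0001 for both). Pfkp (r = 0.93, rho = 0.85), Pfkl (0.92, 0.92), Pfkm (0.91, 0.94), Gpi1 (0.86, 0.83), Eno2 (0.815, 0.84) and Pkm (0.65, 0.77) also rose with it, with adjusted permutation p of at most 0.0303 for each r and rho. The longest transcripts of Hk1, Pfkl and Pfkp (4278, 3730 and 8681 bases) exceed the median of 3282 bases over genes of known length. Those of Pfkm, Gpi1, Eno2 and Pkm (2879, 3195, 2795 and 2432 bases) lie below that median. Aldoa (r = 0.40, rho = 0.38) and Aldoc (r = -0.38, rho = -0.48) did not pass, with adjusted permutation p of 0.219 and 0.227 for r. Pgk1 went the other way, at r = -0.64 (adjusted permutation p = 0.0308) and rho = -0.50 (adjusted permutation p = 0.123).
Without PBS mice 103 and 90, whose slopes lay farthest from the median, r was 0.93 for Hk1, between 0.58 and 0.82 for Gpi1, the phosphofructokinases, Eno2 and Pkm, and -0.39 for Pgk1. In the 10 PBS mice with the prefix SAMP8, r was 0.996 for Hk1, 0.90 for Eno2, 0.74 for Pkm and -0.92 for Pgk1.

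**Figure D4:**
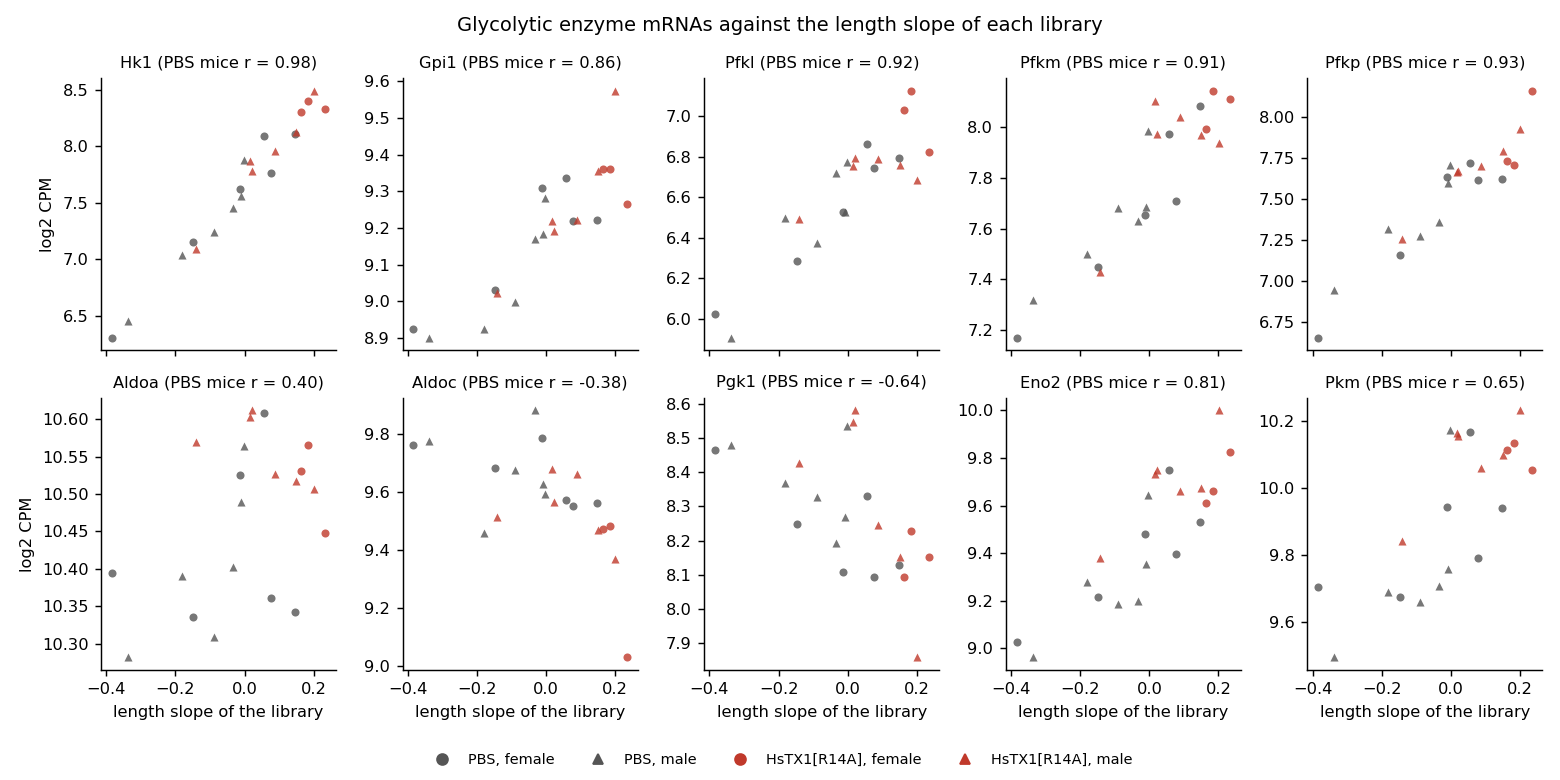
Log2 CPM of each enzyme (y axis, a different range in each panel) against the length slope of the library (x axis), with 1 point per mouse and Pearson's r over the 12 PBS mice above each panel. Hk1 lies close to a line (r = 0.98), while Aldoa and Aldoc scatter (r = 0.40 and -0.38) and Pgk1 falls (r = -0.64).

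The mitochondrial share of counts moved too. It ranged from 9.33% to 20.2% in PBS mice and from 7.14% to 13.5% in treated mice (sex-averaged difference of -5.55 percentage points, exact permutation p = 0.00142). The mouse with the lowest value in 7 of the 10 enzymes among treated mice, male mouse 93, had the highest mitochondrial share (13.5%) and the lowest length slope (-0.14) of its group. PBS mice 103 and 90 had the lowest length slopes of all (-0.38 and -0.34) and were, between them, the lowest PBS mouse for 8 of the 10.

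The calls changed when these library properties entered the model. Both properties were computed from the same counts and differed between treatments. A model with either as a term cannot tell it apart from a treatment difference. With the length slope as a further term, the log2 fold change of Hk1 was 0.01 (adjusted p = 0.964), those of the 3 phosphofructokinases lay between -0.02 and 0.03, Eno2 and Pkm stood at 0.14 each, Aldoa at 0.10 and Aldoc at -0.13. No enzyme and no gene was called in that model (edgeR, 0 of 16303, with 1865 genes at an unadjusted p under 0.05). With the mitochondrial share as a term, chosen after seeing the data, all 10 lay between -0.09 and 0.09, and 0 genes were called (482 at an unadjusted p under 0.05). When the dependence of each library on length and GC content was removed from the counts instead, Hk1 (0.37), Pfkm (0.23), Eno2 (0.29), Pkm (0.20) and Aldoa (0.21) were called higher, Pfkl (0.06) and Pfkp (0.04) were not, and Aldoc (-0.21) had an adjusted p of 0.0536, with 15.3% of all genes called. With 1 surrogate variable, Hk1 (0.31) and Eno2 (0.26) were called, along with 12.9% of all genes.
Among the mice with the prefix SAMP8 alone, the fold changes were like those of all mice (Hk1 0.70, Eno2 0.34, Pkm 0.33 and Aldoc -0.16), and 0 of 16305 genes passed (edgeR, with 5797 genes and 7 of the 10 enzymes at an unadjusted p under 0.05). In the 6 mice with the prefix SAMP, 2 of them PBS, Hk1 stood at 0.22, Eno2 at 0.15 and Pkm at -0.04, and 0 of 16170 genes passed (532 at an unadjusted p under 0.05). With the prefix as a term, Eno2 (0.29, adjusted p = 0.0393) and Pkm (0.23, adjusted p = 0.0435) were called, along with 12.3% of all genes. Without PBS mice 103 and 90, Hk1 (0.52), Eno2 (0.31) and Pkm (0.25) were called, along with 17.7% of all genes.

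**Figure D5:**
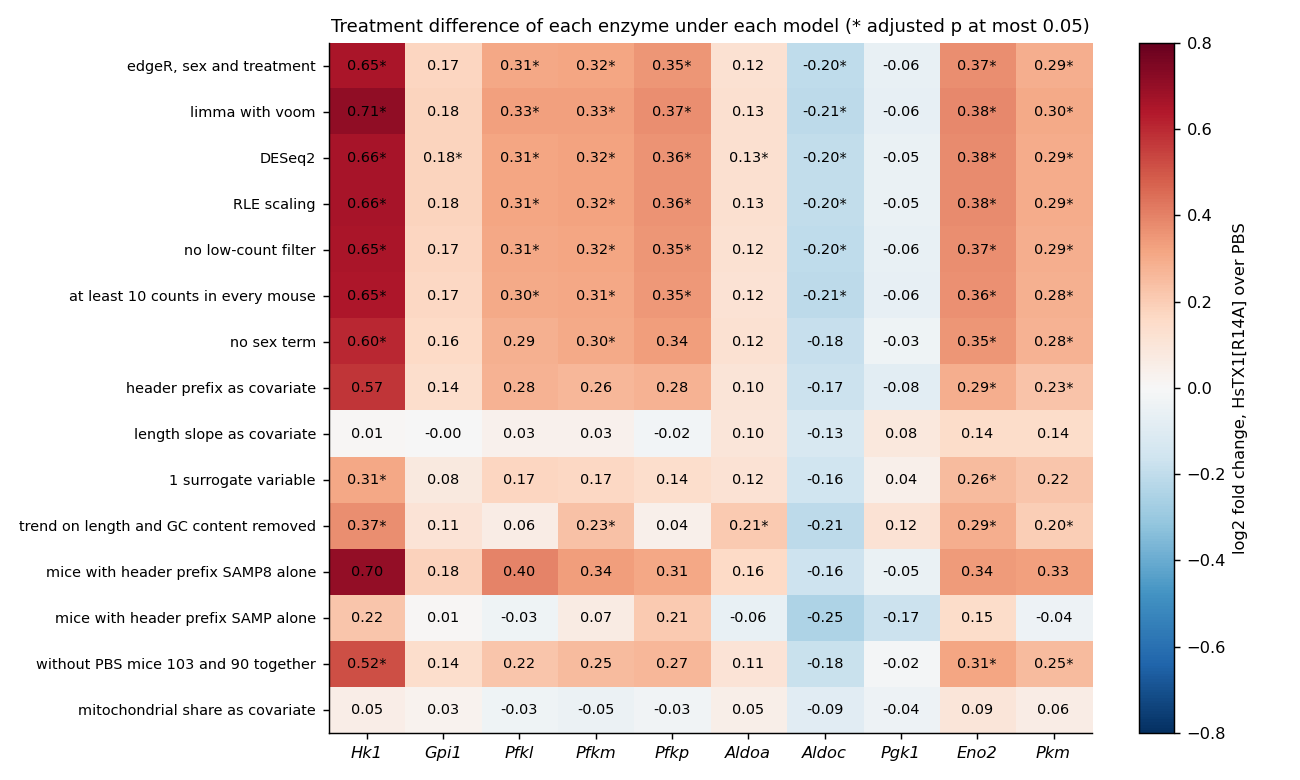
Treatment difference on the log2 scale for each of the 10 enzymes (columns) under each model or choice of mice (rows), colored from blue for lower to red for higher, with an asterisk where the adjusted p was at most 0.05. Hk1, Eno2 and Pkm carry the most asterisks, and the rows with the length slope or the mitochondrial share as covariate carry none.

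Leaving out each mouse in turn, Hk1, Eno2 and Pkm were called in all 21 fits, Pfkm in 15, Pfkp in 12, Pfkl in 11, Aldoc in 9, Gpi1 in 2, Aldoa in 1 and Pgk1 in 0. Without PBS mouse 90, 101, or treated mouse 98, 74 or 81, the enzymes called higher numbered 3, and 7.72% to 11.4% of all genes were called higher. Without treated mouse 93 or PBS mouse 102 or 104 they numbered 7, with 17.2% to 20.1% of all genes called higher. Aldoc lost its call without PBS mouse 103, 105, 73, 104, 82, 90 or 91, or treated mouse 98, 71, 72, 88 or 81.

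The 5 genes outside the 10 whose levels most resembled the mean of the 10 were Eif3c, Syngr1, Amph, Ap1b1 and Slc27a4, with Pearson's r from 0.97 to 0.98 over 21 mice after removal of the group means, among 10452 genes whose mean log2 CPM reached 3. All 5 were called higher in treated mice, with log2 fold changes from 0.31 to 0.52, against 15.5% of all genes called higher. As the 5 were picked for likeness to enzymes that were mostly called higher, their calls are no separate result. Not all of the 10 followed a shared mean. Aldoc (r = -0.279) and Pgk1 (r = -0.34) ran against the mean of the other enzymes, while the rest had r from 0.558 (Aldoa) to 0.911 (Pfkm). The points share the library, and with it depth and length slope, so these values describe likeness only.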

How the data were processed

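Whole-brain RNA of 21 SAMP8 mice was sequenced by the authors. Their reads were aligned with STAR to the mouse genome GRCm38, and Salmon gave the expected counts per gene that the authors deposited without scaling. They were rounded before testing, and 90.496% were already whole to within 0.01. The library kit differs between the labels and the methods, and whether counting used strand is not given in the sources used here, so reads of Hk1, Gpi1, Pfkm, Pfkp and Aldoa may not be separable from overlapping genes on the other strand. A further 53 per-sample columns (37 of CPM, 16 of counts of other libraries) and the columns of the authors' log2 fold changes, p-values and FDR were not used. Genes were tested by ID.

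After filterByExpr and TMM scaling, the quasi-likelihood test of edgeR 4.0.16 (R 4.3.3) was run on a model of sex plus treatment, adjusted by the method of Benjamini and Hochberg over 16303 genes at 0.05. The SE is the log2 fold change divided by the square root of F. Log2 CPM carries a prior count of 2, and ratios a pseudocount of 0.5 CPM. Alternatives were limma 3.58.1 with voom, DESeq2 1.42.0, RLE scaling, no filter, a minimum of 10 counts per mouse, treatment without sex, the header prefix or length slope as covariate, 1 surrogate variable from sva 3.50.0, loess removal (span 0.5) of length and GC trends, the header prefixes alone and each mouse left out. The mitochondrial share as covariate and the joint removal of PBS mice 103 and 90 were chosen after seeing the data. Permutation tests ran in Python 3.11.15 with numpy 2.4.6. Transcript lengths are from GENCODE for GRCm38. Named genes were the 10 enzymes, Eno1, Gapdh, Tpi1, Pgam1, Hk2, Ldha, Ldhb, Slc2a1 and Slc2a3, the 2 genes with the smallest p in each other list and the 5 genes most alike. Fgfr3, Slc4a4, Aqp4, Bnip3, Bnip3l and Gsk3b were named after their values were seen. The 10 members, the lists and the tests were chosen with earlier results of these data known. On simulated data with 200 genes changed 2-fold in this design, edgeR recovered 194 with 10 false calls among 16299 genes, and with 200 genes changed 1.25-fold it recovered 12 with 0 false calls among 16300, so most changes of that size are missed.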

Additional observations from a re-analysis of the deposited data

Results flagged for a closer look

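Among 30 groups of 6 mice (3 groups for each of the 10 enzymes), 2 held a mouse that stood apart from the other 5 by Dixon's criterion, which chance meets in about 1 group of 20. Both were male HsTX1[R14A]-treated mouse 93. Its Pfkm level was 172 CPM, against 245 to 275 CPM in the other 5 mice of the group (gap over range 0.756, critical value 0.625). Its Pfkl level was 90.0 CPM, against 103 to 111 CPM in the others (gap over range 0.638).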

How the results depend on the processing

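With limma/voom, RLE scaling, no low-count filter or at least 10 counts in every mouse, the enzymes called in each direction were again 6 higher and 1 lower, and DESeq2 called 8 higher and 1 lower (19.5% and 18.2% of all genes). The number called higher was 2 with the header prefix as covariate, 2 with 1 surrogate variable, 3 without PBS mice 103 and 90 together, and 0 with the length slope or the mitochondrial share as covariate and with either prefix alone. The number called lower was 0 without the sex term, with each of those covariates, with 1 surrogate variable, with the length and GC trend removed, with either prefix alone, and without mice 103 and 90. Leaving out each mouse in turn gave 3 to 7 called higher and 0 to 1 called lower, and 0 for sex and for the interaction. Single fold changes crossed 0 with the length slope as covariate (Gpi1 -0.0023, Pfkp -0.0222, Pgk1 0.0815), with 1 surrogate variable (Pgk1 0.0383), with the length and GC trend removed (Pgk1 0.116), with the prefix SAMP alone (Pfkl -0.0318, Aldoa -0.0566, Pkm -0.0378) and with the mitochondrial share as covariate (Pfkl -0.0335, Pfkm -0.0465, Pfkp -0.0279), and the cause was not tested.

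In the mice with the prefix SAMP8 alone, Eno2 over Eno1 (0.13) and Hk2 over Hk1 (-0.46) no longer passed (exact permutation adjusted p = 0.0566 for both), and Pfkp over Pfkl (-0.104) and Pfkp over Pfkm (-0.0184), which never passed, changed sign. Without mice 103 and 90, Pfkm over Pfkl was 0.0187. Leaving out each mouse in turn gave -0.0561 to 0.0255 for Pfkm over Pfkl, -0.0806 to 0.108 for Pfkp over Pfkl, -0.0245 to 0.0972 for Pfkp over Pfkm, -0.38 to -0.29 for Aldoc over Aldoa and 0.12 to 0.22 for Eno2 over Eno1, and the Aldoc and Eno2 ratios passed each time. For the length slope in PBS mice, r ranged from -0.84 to -0.56 for Pgk1 and from 0.54 to 0.71 for Pkm; Pgk1 no longer passed without mouse 103, 84, 85 or 90, nor Pkm without mouse 90. No paired analysis was run, since each mouse number belongs to 1 mouse. The paper states that treatment was assigned at random within each cage. The sample labels do not give the cage, so it could not enter the model. The smallest count of any of the 10 in a mouse was 917 (Pfkl).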
